A study of Mus musculus with 8 samples.

Results

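Axon guidance genes encode secreted and membrane-bound cues and the receptors that read them, and they were followed here in primary mouse aortic smooth muscle cells (MASMCs). Members were chosen by gene symbol and comprised 20 semaphorins of classes 3 to 7, 9 plexins, 2 neuropilins, 3 Slits, 4 Robos, 8 ephrins, 14 Eph receptors, 4 netrins, and 6 netrin receptors. They made up 70 of the 18533 gene symbols counted in each sample. RNA-Seq compared MASMCs of WT mice (n = 4) with MASMCs of *Hint1*-/- mice (n = 4), to see which transcripts depend on the nucleotide-binding protein HINT1. Every sample had received PDGF-BB, a growth factor that moves smooth muscle cells away from the contractile state, at 20 ng/mL for 24 hours, so no untreated sample stood beside them. The cells came from male mice aged 4 to 6 weeks, and the methods name the thoracic aorta in one place and the whole aorta in another, with adventitia and endothelium removed before digestion. The *Hint1*-/- mice came from another laboratory and are named apart from the study's smooth muscle knockout, with no Cre driver given. Neither the labels nor the methods say whether the 4 samples of a genotype came from separate mice, so p-values here measure the spread between these samples, which may be technical. Estimated counts, the deposited unit, summed to between 20778077 and 20888041 per sample.

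Semaphorins signal through plexins, and the secreted class 3 semaphorins mostly use neuropilins as co-receptors. Slits bind Robo receptors, netrins bind DCC, neogenin, and UNC5 receptors, and ephrins bind Eph receptor tyrosine kinases where cells touch. These pairs were first described in growing axons, but they also steer the migration and adhesion of vascular cells, and ephrin-B2 is a marker of arteries.

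*Hint1*, the targeted gene, was read first in every sample. Its estimated counts were 2272, 2336, 2364, and 2301 in WT replicates 1 to 4 and 713, 748, 778, and 715 in *Hint1*-/- replicates 1 to 4. All 4 *Hint1*-/- samples lay below all 4 WT samples and kept 32.1% of what WT samples held. What transcript these remaining counts came from was not tested. On the log2 scale *Hint1* fell by 1.64 (SE 0.037, edgeR adjusted p = 6.8e-16).

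The cell type label was then checked against marker genes, in CPM (counts scaled to library size) summed over each list. Smooth muscle markers summed to 2670, 2520, 2590, and 2640 CPM in the WT samples and to 2380, 2420, 2340, and 2330 CPM in the *Hint1*-/- samples, with *Cald1* the most abundant and none at 0. Endothelial markers were near the floor, from 8.15 to 10.8 CPM in WT and from 8.65 to 10 CPM in *Hint1*-/- samples, and *Tie1* and *Cldn5* never passed 10 counts. Macrophage markers were as abundant as those of smooth muscle, at 2650, 2800, 2740, and 3020 CPM in WT and 2150, 2300, 2300, and 2180 CPM in *Hint1*-/- samples, with *Lyz2* the most abundant. In these bulk samples, fewer cells of a type and less RNA per cell cannot be told apart.

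Transcripts of nearly all guidance families were present in these MASMC samples, and which cells of the cultures held them was not tested. Levels between genes are compared here in TPM, computed from the counts and the union of each gene's exons. Over the 8 samples, 28 members had a mean above 10 TPM, 25 lay between 1 and 10 TPM, and 17 lay under 1 TPM. *Plxnb2*, a receptor for class 4 semaphorins, was highest at 294 TPM, followed by the Robo ligand *Slit3* at 124 TPM and *Plxna1*, which works with neuropilins, at 109 TPM. The leading member of each other family was *Sema3f* (38.9 TPM), *Sema4b* (45.1 TPM), *Nrp2* (77.7 TPM), *Robo1* (6.62 TPM), *Efna4* (13.5 TPM), *Efnb2* (47.7 TPM), *Epha2* (44.2 TPM), *Ephb4* (38.3 TPM), *Ntn1* (31.6 TPM), and *Unc5b* (61.9 TPM). Ligand and receptor were thus both present for each guidance system, with the Robo receptors far below *Slit2* (29.6 TPM) and *Slit3*. Mean counts of *Slit2* and *Slit3* were nearly equal, at 4550 and 4560. Their order in TPM rests on exon unions of 25433 and 6067 bases, and which transcripts were expressed was not tested.

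**Figure D1:**
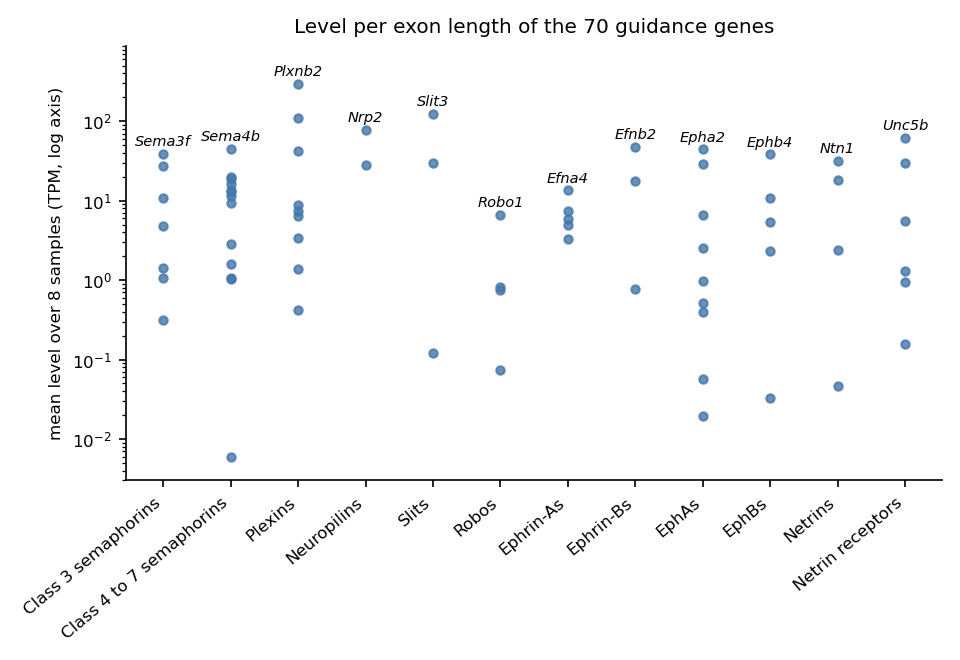
Mean level of each of the 70 guidance genes over the 8 samples in TPM, on a log axis, grouped by family, with the highest member of each family named. Each point is 1 gene, and *Plxnb2* (294 TPM), *Slit3* (124 TPM), and *Plxna1* (109 TPM) stand highest.

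After the filter on low counts, 62 of the 70 members were tested between the genotypes. Untested members were *Unc5d* with 70 counts over the 8 samples, *Slit1* with 35, *Robo4* with 19, *Epha5* with 16, *Epha8* with 13, *Ephb1* with 11, *Ntn5* with 5, and *Sema5b* with 2. *Epha5* had 2, 2, 5, and 5 counts in WT samples and 0, 1, 1, and 0 in *Hint1*-/- samples, which is too few to describe a level. The filter asked for 0.48 CPM in at least 4 samples, and *Plxnb3* met it in 4 WT and 2 *Hint1*-/- samples, *Sema4f* and *Efnb3* in 4 WT and 3 *Hint1*-/- samples.

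At an adjusted p under 0.05 and a fold change over 1.5, 6 of the 62 tested members changed, and all 6 were lower in *Hint1*-/- MASMCs. These were *Sema4f*, *Plxnb3*, *Robo2*, *Robo3*, *Sema3b*, and *Sema7a*. *Sema4f* and *Plxnb3* reached the 4 samples asked by the filter only through WT, where they were higher. Their direction is therefore not independent of the filter. With at least 10 counts asked of every sample, neither was tested, and 4 members changed, all lower. The count was 4 in DESeq2 and 6 in limma-voom, and 3 without *Hint1*-/- replicate 4. Across all 13535 genes tested, 2.83% passed both thresholds, 1.49% as lower and 1.34% as higher. No member was higher at both thresholds in edgeR, at an unadjusted p under 0.05 with the same fold limit, in DESeq2, or in limma-voom (0 in each).

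Without the fold limit, 29 of the 62 tested members passed an adjusted p of 0.05, which is 46.8% against 21.5% of all genes tested. Of these, 16 were higher and 13 were lower, where 11.2% of all genes were higher and 10.2% lower. In CPM, the 8 samples separated by genotype without overlap in 30 members (48.4%), 15 upward and 15 downward, against 23% of all genes. The median size of the log2 fold change over all 62 tested members was 0.17, against 0.09 over all genes. The median log2 fold change with its sign was −0.01 over the members and 0 over all genes.

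**Figure D2:**
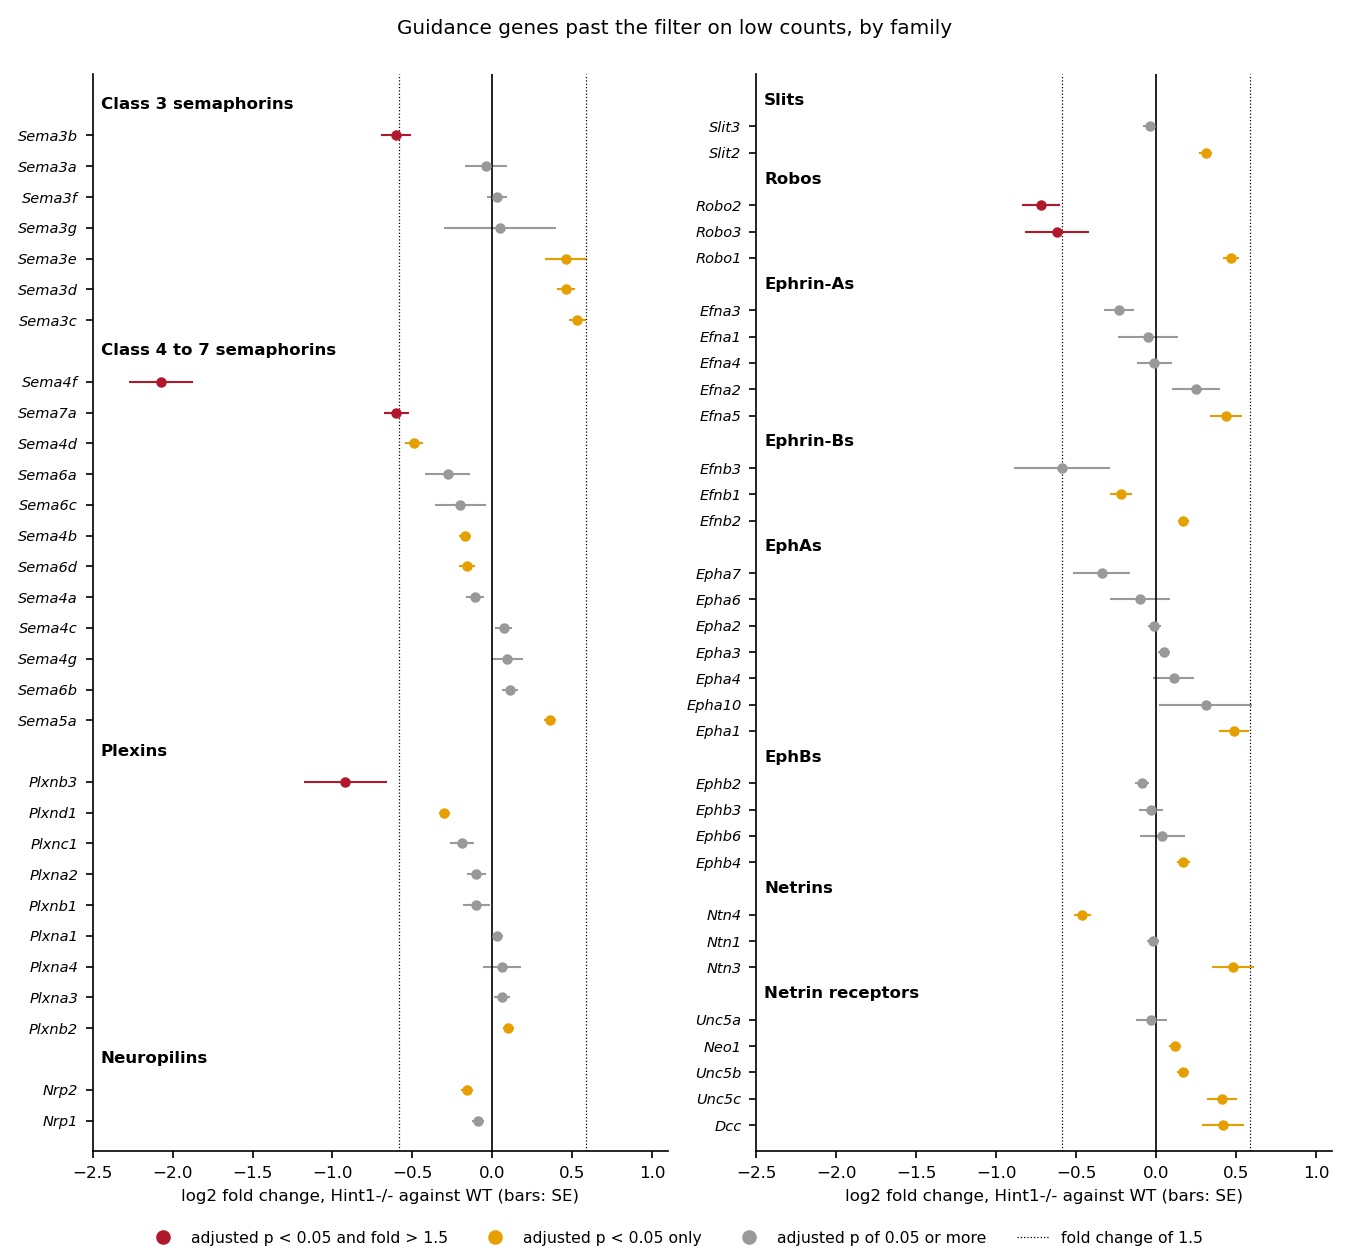
Log2 fold change of the 62 tested guidance genes in Hint1-deficient against WT MASMCs (n = 4 each), with SE bars, grouped by family and coloured by the edgeR call. Dotted lines mark a fold change of 1.5, and the 6 genes past both thresholds all lie on the left, from −0.60 for *Sema3b* and *Sema7a* to −2.07 for *Sema4f*.

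Secreted class 3 semaphorins moved in both directions, with 4 of 7 past the adjusted p (57.1%, against 21.5% of all genes). *Sema3b*, a ligand for neuropilin and plexin complexes, had 181, 162, 170, and 159 counts in WT samples and 119, 95, 120, and 105 in *Hint1*-/- samples. The lowest WT sample stood well above the highest *Hint1*-/- sample. Its log2 fold change was −0.60 (SE 0.094, edgeR adjusted p = 1.2e-04), just past the fold limit. The fold fell under that limit without WT replicate 1 (log2 −0.56), *Hint1*-/- replicate 2 (−0.54), or *Hint1*-/- replicate 4 (−0.58), while the adjusted p stayed between 2.7e-05 and 7.6e-04 over the alternatives.

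By contrast, *Sema3c*, which guides cardiac neural crest cells and outflow tract development, had 914, 1028, 952, and 973 counts in WT samples and 1284, 1428, 1285, and 1531 in *Hint1*-/- samples. All *Hint1*-/- samples exceeded all WT samples, and the level went from 22.3 to 32.2 TPM. The log2 fold change was 0.53 (SE 0.053, edgeR adjusted p = 7.7e-07), the largest rise of any tested member and short of the fold limit. *Sema3d*, another secreted cue of vascular patterning, had 489, 512, 496, and 416 counts in WT samples and 645, 629, 662, and 683 in *Hint1*-/- samples. No *Hint1*-/- sample came near the WT range, and the log2 fold change was 0.46 (SE 0.058, edgeR adjusted p = 1.0e-05).

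*Sema3e*, which acts on plexin D1 without a neuropilin, had 82, 73, 61, and 56 counts in WT samples and 95, 88, 89, and 100 in *Hint1*-/- samples. The groups did not overlap but lay close together, with a log2 fold change of 0.46 (SE 0.13, edgeR adjusted p = 0.0146). Without WT replicate 3 the adjusted p was 0.0522, the highest of a range that began at 0.00602. The most abundant class 3 gene, *Sema3f*, had overlapping samples between 1032 and 1323 counts and a log2 fold change of 0.03. *Sema3a* and *Sema3g* also overlapped, at −0.04 and 0.05, and *Sema3g* had at most 11 counts in any sample. *Sema3a*, *Sema3c*, *Sema3d*, and *Sema3e* lie along chromosome 5, and the 3 that rose share that chromosome with 1 that did not. *Sema3b* and *Sema3f* are neighbours on chromosome 9, from 107597674 to 107609229 and from 107681500 to 107710475 in mm10.

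Among the 12 tested membrane-bound semaphorins of classes 4 to 7, 6 passed the adjusted p (50%, against 21.5% of all genes), 5 of them lower. *Sema4f*, a transmembrane semaphorin known from neurons and from the contacts of Schwann cells with axons, gave the largest difference of all tested members. Its counts were 61, 57, 49, and 51 in WT samples and 15, 13, 15, and 8 in *Hint1*-/- samples. Every *Hint1*-/- sample held less than every WT sample, with a wide gap between the groups. The level went from 1.70 ± 0.176 TPM in WT to 0.399 ± 0.100 TPM in *Hint1*-/- MASMCs (mean ± SD). That left 23.8% of WT. The log2 fold change was −2.07 (SE 0.20, edgeR adjusted p = 5.4e-07), and it lay between −2.16 and −1.91 in the 14 alternatives that tested the gene.

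*Sema7a*, a semaphorin held in the membrane by a lipid anchor that binds integrins and plexin C1, was the only changed member above 10 TPM. Its counts were 366, 285, 337, and 337 in WT samples and 230, 202, 230, and 204 in *Hint1*-/- samples. The groups were clearly apart, although WT replicate 2 sat below the other WT samples. The log2 fold change was −0.60 (SE 0.079, edgeR adjusted p = 1.8e-05). It slipped under the fold limit without WT replicate 1 (−0.55), *Hint1*-/- replicate 2 (−0.57), or *Hint1*-/- replicate 4 (−0.57), with adjusted p-values from 4.2e-08 to 1.7e-04 over the alternatives.

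*Sema4d*, an immune semaphorin that binds plexin B receptors and CD72, had 744, 719, 677, and 686 counts in WT samples and 456, 535, 520, and 488 in *Hint1*-/- samples. The lowest WT sample exceeded the highest *Hint1*-/- sample by a wide margin. Its log2 fold change was −0.49 (SE 0.055, edgeR adjusted p = 2.4e-06), which did not reach the fold limit. *Sema4b* at −0.17 and *Sema6d* at −0.16 were also lower without overlap, by small amounts. *Sema6d* missed the adjusted p in DESeq2 (0.0583), without WT replicate 4 (0.0696), without *Hint1*-/- replicate 2 (0.0622), and without *Hint1*-/- replicate 4 (0.0545), over a range from 0.0146 to 0.0696.

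*Sema5a* was the only membrane-bound semaphorin to rise, and its thrombospondin repeats set it apart from other classes. It had 1127, 1135, 1136, and 1120 counts in WT samples and 1465, 1442, 1342, and 1515 in *Hint1*-/- samples. WT samples were nearly identical and all *Hint1*-/- samples were higher, and the log2 fold change was 0.36 (SE 0.039, edgeR adjusted p = 1.6e-06). The other tested members, *Sema4a*, *Sema4c*, *Sema4g*, *Sema6a*, *Sema6b*, and *Sema6c*, had log2 fold changes from −0.28 to 0.11 and did not pass. *Sema6a* alone of these separated by genotype, with 56 to 63 counts in WT and 45 to 55 in *Hint1*-/- samples.

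The plexins, the signalling receptors of semaphorins, passed the adjusted p in 3 of 9 members (33.3%, against 21.5% of all genes). *Plxnb3*, a receptor for *Sema5a*, had 23, 20, 25, and 18 counts in WT samples and 9, 11, 9, and 16 in *Hint1*-/- samples. The groups did not overlap, but *Hint1*-/- replicate 4 lay just under the lowest WT sample. The log2 fold change was −0.92 (SE 0.26, edgeR adjusted p = 0.0153) on very few counts. Its adjusted p was 0.0678 in DESeq2, 0.0543 without WT replicate 3, and 0.0523 without *Hint1*-/- replicate 1, over a range from 0.00902 to 0.0678, and it was not tested where 10 counts were asked of every sample.

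*Plxnd1*, the receptor for *Sema3e*, had 2000, 1983, 2072, and 2124 counts in WT samples and 1608, 1600, 1718, and 1672 in *Hint1*-/- samples. All *Hint1*-/- samples were lower, and the log2 fold change was −0.30 (SE 0.036, edgeR adjusted p = 6.8e-06). Ligand and receptor of this pair thus moved in opposite directions. *Plxnb2*, the most abundant member, had 13566, 13333, 13406, and 12712 counts in WT samples and 14285, 13558, 13712, and 15025 in *Hint1*-/- samples. Those counts overlap, and the genotypes were apart only in CPM. The log2 fold change was 0.10 (SE 0.036, edgeR adjusted p = 0.0466).

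This small difference in *Plxnb2* was lost in several alternatives. The adjusted p was 0.0715 with upper-quartile factors and 0.0559 with replicate number as a block. It was 0.0501, 0.0607, 0.0844, and 0.117 without WT replicates 1 to 4. Without *Hint1*-/- replicates 1 and 4 it was 0.106 and 0.164, over a range from 0.0281 to 0.164. *Plxna1*, *Plxna2*, *Plxna3*, *Plxna4*, *Plxnb1*, and *Plxnc1* had log2 fold changes between −0.19 and 0.06 and overlapped between the genotypes. Of the neuropilins, which bind class 3 semaphorins and VEGF, *Nrp2* had 5602, 6041, 5843, and 6107 counts in WT samples and 4889, 5150, 5323, and 5546 in *Hint1*-/- samples. The genotypes were next to each other without overlap, and the log2 fold change was −0.16 (SE 0.039, edgeR adjusted p = 0.00538). *Nrp1* overlapped, at −0.09.

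**Figure D3:**
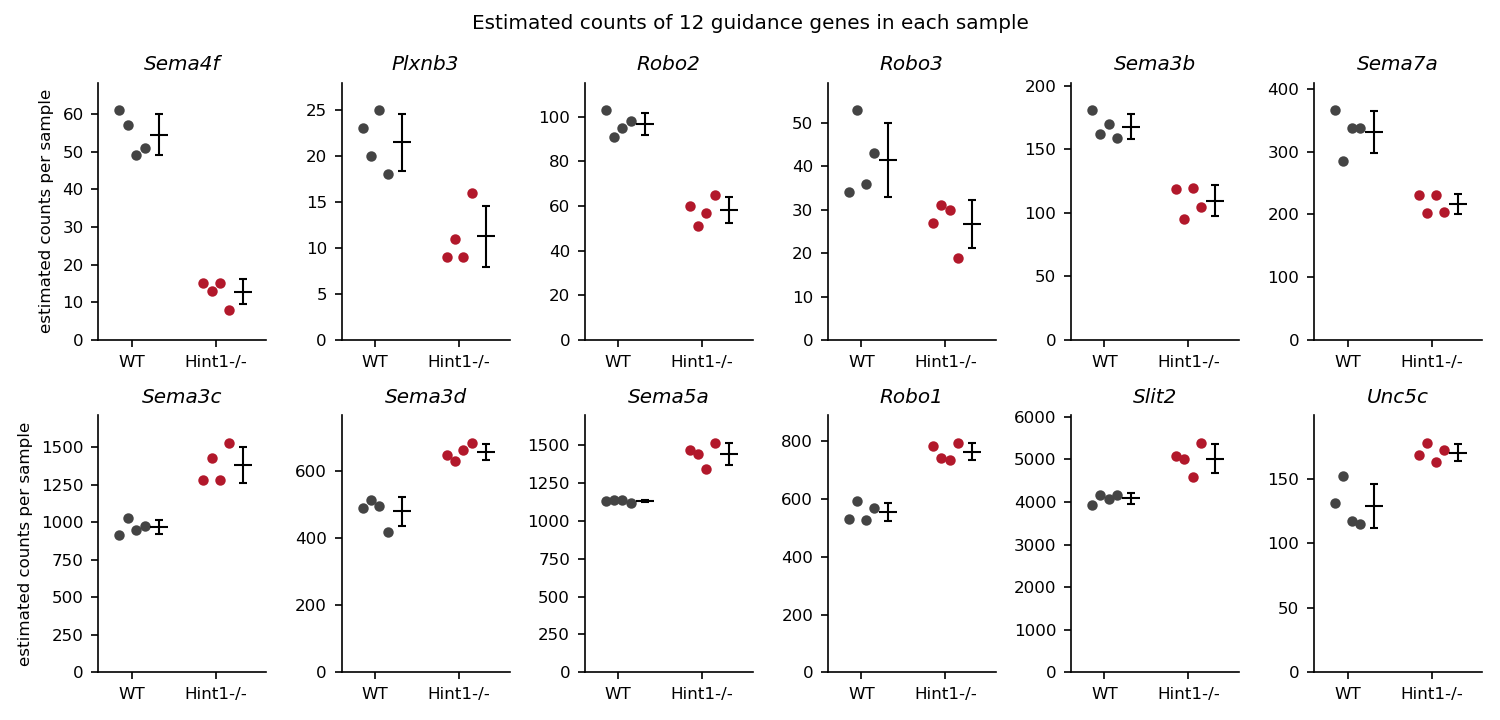
Estimated counts of 12 guidance genes in each of the 4 WT and 4 Hint1-deficient samples, with the mean and SD beside the points and each axis starting at 0. The upper row holds the 6 genes lower at both thresholds and the lower row 6 genes that were higher by the adjusted p only, and no gene shown overlaps between the genotypes.

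Both sides of the Slit and Robo system differed between the genotypes. *Slit2*, a secreted repellent, had 3921, 4175, 4074, and 4166 counts in WT samples and 5093, 5011, 4590, and 5397 in *Hint1*-/- samples. All *Hint1*-/- samples were higher, by a log2 fold change of 0.31 (SE 0.042, edgeR adjusted p = 2.5e-05). *Slit3*, the more abundant ligand per exon length, had 4812, 4809, 4631, and 4300 counts in WT samples and 4496, 4409, 4256, and 4751 in *Hint1*-/- samples. These overlapped fully, with a log2 fold change of −0.04 (SE 0.041, edgeR adjusted p = 0.548).

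All 3 tested Robo receptors separated by genotype, 1 upward and 2 downward, where 23% of all genes did. *Robo1* had 531, 592, 529, and 571 counts in WT samples and 784, 743, 737, and 796 in *Hint1*-/- samples. Each *Hint1*-/- sample was above each WT sample, and the log2 fold change was 0.47 (SE 0.049, edgeR adjusted p = 1.0e-06). *Robo2*, which binds the same ligands, had 103, 91, 95, and 98 counts in WT samples and 60, 51, 57, and 65 in *Hint1*-/- samples. Here each *Hint1*-/- sample was below each WT sample, and the log2 fold change was −0.72 (SE 0.12, edgeR adjusted p = 2.0e-04). *Robo2* kept both thresholds in all 15 alternatives, between −0.78 and −0.66.

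*Robo3*, a divergent Robo that mammalian Slits bind poorly and that is best known from crossing axons, had 34, 53, 36, and 43 counts in WT samples and 27, 31, 30, and 19 in *Hint1*-/- samples. The groups were only a few counts apart, and WT replicate 2 and *Hint1*-/- replicate 4 were the extremes. The log2 fold change was −0.62 (SE 0.20, edgeR adjusted p = 0.0341). It missed the adjusted p in DESeq2 (0.0883) and without WT replicate 2 (0.116), WT replicate 4 (0.0659), *Hint1*-/- replicate 1 (0.0668), or *Hint1*-/- replicate 4 (0.119), over a range from 0.0236 to 0.119.

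In TPM, *Robo1* went from 5.55 ± 0.355 in WT to 7.69 ± 0.352 in *Hint1*-/- MASMCs, whereas *Robo2* went from 0.938 ± 0.0432 to 0.570 ± 0.0621 (SD, n = 4). *Robo1* was therefore the main Robo transcript in both genotypes. *Robo1* and *Robo2* are neighbours on chromosome 16 of mm10, from 72308306 to 73046095 on the plus strand and from 73891839 to 74411825 on the minus strand. *Robo3* lies on chromosome 9 from 37415669 to 37433246, next to the endothelial receptor gene *Robo4*, which had 5 counts or fewer in every sample.

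Ephrins, the membrane-bound ligands of Eph receptors, had 3 of 8 members past the adjusted p (37.5%, against 21.5% of all genes) and 0 past both thresholds in edgeR (0 at an unadjusted p with the fold limit, in DESeq2, and in limma-voom). *Efna5*, a lipid-anchored ephrin, had 144, 111, 128, and 109 counts in WT samples and 165, 149, 182, and 168 in *Hint1*-/- samples. The lowest *Hint1*-/- sample was just above the highest WT sample, and the log2 fold change was 0.44 (SE 0.10, edgeR adjusted p = 0.00353). *Efnb2*, the arterial ephrin, had 1926, 1804, 1870, and 1860 counts in WT samples and 2149, 2004, 2083, and 2106 in *Hint1*-/- samples. It was slightly but evenly higher, by a log2 fold change of 0.17 (SE 0.035, edgeR adjusted p = 0.00143).

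*Efnb1*, an X-linked relative, had overlapping counts of 350 to 434 in WT and 319 to 361 in *Hint1*-/- samples, and its log2 fold change was −0.22 (SE 0.069, edgeR adjusted p = 0.0302). That call was lost in DESeq2 (0.0594) and without WT replicate 1 (0.0887), WT replicate 3 (0.116), *Hint1*-/- replicate 3 (0.0715), or *Hint1*-/- replicate 4 (0.100), over a range from 0.00569 to 0.116. *Efna1*, *Efna2*, *Efna3*, *Efna4*, and *Efnb3* did not pass. *Efna3* separated by genotype at −0.23, and *Efnb3*, at −0.59, had 5 to 23 counts per sample. *Efna1*, *Efna3*, and *Efna4* sit together on chromosome 3, and 344 exon bases of *Efna3* and 168 of *Efna4* are shared with genes on the opposite strand.

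Eph receptors stayed near the background, with 2 of 11 tested members (18.2%, against 21.5% of all genes) past the adjusted p, both higher, and 0 past both thresholds in edgeR (0 at an unadjusted p with the fold limit, in DESeq2, and in limma-voom). *Epha1* had 154, 120, 123, and 126 counts in WT samples and 201, 175, 185, and 170 in *Hint1*-/- samples. The *Hint1*-/- samples were all higher, by a log2 fold change of 0.49 (SE 0.094, edgeR adjusted p = 8.2e-04). Its exons share 6.01% of their bases with *Zyx* on the opposite strand, and strand was not stated for the counting. *Ephb4*, the venous partner of ephrin-B2, had 1028, 1032, 1071, and 940 counts in WT samples and 1156, 1080, 1140, and 1156 in *Hint1*-/- samples. Those groups were close but apart, at a log2 fold change of 0.17 (SE 0.042, edgeR adjusted p = 0.00827).

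The 2 Eph receptors highest in TPM, *Epha2* at 44.2 and *Ephb4* at 38.3, were followed by *Epha3* at 28.8. *Epha2*, which binds ephrin-A1, had 1351, 1262, 1270, and 1148 counts in WT samples and 1237, 1222, 1267, and 1230 in *Hint1*-/- samples. These ranges overlapped, and the log2 fold change was −0.01 (SE 0.043, edgeR adjusted p = 0.897). The 9 tested Eph receptors that did not pass had log2 fold changes from −0.34 for *Epha7* to 0.31 for *Epha10*, both with fewer than 40 counts in any sample.

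Netrins, laminin-related secreted cues, moved apart. *Ntn4*, a netrin that binds laminins in basement membranes, had 484, 500, 465, and 458 counts in WT samples and 334, 348, 363, and 330 in *Hint1*-/- samples. The *Hint1*-/- samples formed a tight group well below WT, with a log2 fold change of −0.46 (SE 0.056, edgeR adjusted p = 6.5e-06). *Ntn3* had 64, 67, 61, and 56 counts in WT samples and 95, 71, 92, and 85 in *Hint1*-/- samples. It was higher without overlap, at 0.48 (SE 0.13, edgeR adjusted p = 0.0110), and 4.46% of its exon bases are shared with other genes. *Ntn1*, the classical chemoattractant, stayed between 1128 and 1245 counts in all 8 samples, and its log2 fold change was −0.02 (SE 0.039, edgeR adjusted p = 0.819).

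Netrin receptors were higher in 4 of 5 tested members by the adjusted p (80%, against 11.2% higher among all genes) and lower in 0 in edgeR (0 lower at an unadjusted p under 0.05, in DESeq2, and in limma-voom). *Unc5c*, a repulsive netrin receptor, had 131, 152, 117, and 115 counts in WT samples and 168, 178, 163, and 172 in *Hint1*-/- samples. *Unc5b*, the main UNC5 receptor of blood vessels, had 2340, 2109, 2273, and 2115 counts in WT samples and 2522, 2409, 2452, and 2507 in *Hint1*-/- samples. In both genes every *Hint1*-/- sample exceeded every WT sample, by a log2 fold change of 0.41 for *Unc5c* (SE 0.094, edgeR adjusted p = 0.00347) and 0.17 for *Unc5b* (SE 0.038, edgeR adjusted p = 0.00287).

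*Dcc*, the attractive netrin receptor, had 61, 69, 65, and 63 counts in WT samples and 89, 81, 73, and 99 in *Hint1*-/- samples. It was higher in all *Hint1*-/- samples at a low level, with a log2 fold change of 0.42 (SE 0.13, edgeR adjusted p = 0.0226). The call was lost in DESeq2 (0.0787) and without WT replicate 1 (0.0589), *Hint1*-/- replicate 1 (0.0572), or *Hint1*-/- replicate 4 (0.0898), over a range from 0.0122 to 0.0898. *Neo1*, which encodes neogenin and also binds repulsive guidance molecules, overlapped between 1460 to 1552 counts in WT and 1536 to 1693 in *Hint1*-/- samples. Its log2 fold change of 0.12 (SE 0.038, edgeR adjusted p = 0.0254) lost the call without WT replicates 1 (0.05) and 4 (0.0752) and without *Hint1*-/- replicates 1 (0.0851), 2 (0.0552), and 4 (0.0794), over a range from 0.00682 to 0.0851. *Unc5a* had a log2 fold change of −0.03 and overlapped.

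Other genes of these pathways were read from a list of 21 further ligands and co-receptors and a list of 34 cytoplasmic effectors. Of the 48 tested genes, 3 changed at both thresholds (6.25%, against 2.83% of all genes), and all 3 are cell adhesion molecules of the L1 family that act as semaphorin co-receptors. *L1cam* had 240, 225, 219, and 212 counts in WT samples and 105, 86, 104, and 81 in *Hint1*-/- samples. *Nrcam* had 96, 108, 87, and 95 counts in WT samples and 39, 32, 38, and 48 in *Hint1*-/- samples. Both were lower in every *Hint1*-/- sample by a wide gap, with log2 fold changes of −1.24 (SE 0.094, edgeR adjusted p = 1.6e-08) and −1.28 (SE 0.14, edgeR adjusted p = 1.8e-06).

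*Chl1*, the L1 relative that pairs with neuropilins, went the other way, with 96, 102, 89, and 113 counts in WT samples and 171, 139, 142, and 158 in *Hint1*-/- samples. All *Hint1*-/- samples were higher, at a log2 fold change of 0.62 (SE 0.10, edgeR adjusted p = 2.2e-04). It fell under the fold limit without WT replicate 3 (0.57) or *Hint1*-/- replicate 1 (0.56), with adjusted p-values from 4.7e-05 to 0.00144 over the alternatives. The repulsive guidance molecules *Rgma* and *Rgmb*, ligands of neogenin, were both at 0.02. *Flt1*, a VEGF receptor, was lower at −0.45 (SE 0.045, edgeR adjusted p = 6.3e-07), as was the *Sema4d* receptor *Cd72* at −0.21 (SE 0.041, edgeR adjusted p = 9.4e-04). However, 1423 of the 3422 exon bases of *Cd72* are shared with *Tesk1* on the opposite strand.

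Effectors inside the cell stayed close to the background of all genes. Of 33 tested, 8 (24.2%, against 21.5% of all genes) passed the adjusted p, 6 higher and 2 lower, and 0 passed both thresholds in edgeR (0 at an unadjusted p with the fold limit, in DESeq2, and in limma-voom). *Srgap3*, whose product binds Robo1 inside the cell, had 687, 775, 777, and 752 counts in WT samples and 950, 984, 977, and 1045 in *Hint1*-/- samples. It was the effector that rose most, with no overlap and a log2 fold change of 0.41 (SE 0.046, edgeR adjusted p = 2.0e-06). The Abelson kinase *Abl1* was higher at 0.24 and the exchange factor *Farp1* at 0.20, while *Vav3* was lower at −0.38.

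Markers of several other cell types also differed between the genotypes. Of the 9 tested Schwann cell and neural crest markers, 7 changed (77.8%, against 2.83% of all genes), all lower, among them *Ngfr* (−2.73), *Sox10* (−2.53), *Foxd3* (−2.28), *Cdh19* (−1.91), and *Erbb3* (−1.13) on the log2 scale. The list of 10 summed to 72.7, 71.8, 74.2, and 68.2 CPM in WT samples and to 30.5, 27.6, 30.0, and 27.9 CPM in *Hint1*-/- samples, or 40.4% of WT. The largest counts were those of *Ngfr* in WT samples (415 to 481, against 54 to 83 in *Hint1*-/- samples) and of *Mbp* in *Hint1*-/- samples (298 to 330, against 319 to 389 in WT). *Mbp* did not pass, no marker was at 0 in all samples, and *Gfra3* had at most 3 counts. *Sema4f*, *L1cam*, and *Nrcam* fell in the same samples, and the part of Schwann or neural crest cells in those differences was not tested.

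Macrophage markers moved downward too, with 9 of 10 past the adjusted p (90%, against 21.5% of all genes), all lower, and 0 past both thresholds in edgeR (0 at an unadjusted p with the fold limit, in DESeq2, and in limma-voom). Their summed level in *Hint1*-/- samples was 79.7% of WT, and no marker was at 0. The other marker, *Mrc1*, had 17 to 25 counts in WT and 21 to 37 in *Hint1*-/- samples, which overlapped, at a log2 fold change of 0.58 (SE 0.22, edgeR adjusted p = 0.074). *Sema4d*, *Cd72*, *Plxnd1*, and *Vav3* were lower in the same samples, and the part of macrophages in these differences was not tested. Endothelial markers passed in 0 of 7 tested in edgeR (2 at an unadjusted p under 0.05, 0 in DESeq2 and limma-voom), beside *Flt1*, *Unc5b*, and *Efnb2*.

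Within the other lists, 4 of 9 tested smooth muscle markers changed (44.4%, against 2.83% of all genes), all lower. These were *Myh11* (−1.54), *Actg2* (−1.20), *Cnn1* (−1.12), and *Des* (−0.61). *Des* lost the fold limit without WT replicate 2 (−0.55) or *Hint1*-/- replicate 2 (−0.54). By the adjusted p alone 7 passed, 6 lower and 1 higher, the latter *Smtn* (0.25). The lower ones included *Acta2* (−0.51, edgeR adjusted p = 1.4e-08) and *Lmod1* (−0.31), while *Tagln* (−0.11) and *Cald1* (0.05) did not pass. Of 10 fibroblast markers 3 changed (30%), with *Lum* (0.88) and *Dcn* (0.83) higher and *Dpt* (−0.79) lower. The list summed to 2410, 2370, 2390, and 2350 CPM in WT and 3320, 3390, 3190, and 3200 CPM in *Hint1*-/- samples. *Dcn* alone went from 1110 to 1970 CPM, most of that difference, and the median log2 fold change of the list was −0.04. Of 7 tested pericyte markers 2 changed (28.6%), *Mcam* (−2.13) and *Cspg4* (−0.75), both lower. The sum of the pericyte list went from 492 ± 15.1 to 462 ± 23.7 CPM (mean ± SD). In the neuron list 1 of 2 tested genes changed (50%), *Gap43*, which was lower (−0.85), and 8 of 10 genes never passed 10 counts. In the cardiac list *Myl7* had 0 counts in every WT sample and 28, 16, 34, and 13 in *Hint1*-/- samples, and *Myh6* had 3, 0, 0, and 1 in WT and 54, 58, 58, and 32 in *Hint1*-/- samples. Both passed the filter only through the *Hint1*-/- samples, so their fitted log2 fold changes are not measured folds. Those values lay between 5.45 and 7.71 for *Myl7* and between 5.13 and 6.8 for *Myh6* over the alternatives that tested them. Of the other tested cardiac markers, *Tnnt2* was higher at both thresholds (0.76), while *Tnni3* (0.74) and *Myl4* (−0.03) did not pass. No share of changed cardiac markers is given, because *Myl7* and *Myh6* were tested only through the samples where they are high. The list's sum went from 5.39 ± 0.377 to 10.9 ± 1.72 CPM (mean ± SD). The part of such cells in the guidance genes that rose or fell was not tested.

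Promoter sequences of the members were searched for AP-2 motifs because the study names TFAP2A as a partner of HINT1 in transcription. Windows from RefSeq (GRCm38.p6) were read for 60 of the 70 members, 76 in all, and not analysed here were those of *Efnb3*, *Sema3b*, *Ntn1*, *Plxna4*, *Sema6a*, *Sema3f*, *Plxna1*, *Dcc*, *Slit1*, and *Unc5d*. The 250 bases before each start were searched on both strands for the AP-2 motif GCCNNNGGC and the E-box CACGTG, which both read the same on either strand and do not overlap each other in these windows. The AP-2 motif occurred in 17 member windows (22.4%), against 13.7% of all 32851 windows, whose median GC content was 52.4% against 64.4% for the members. It stood in 4 of 16 windows of members that were higher by the adjusted p (25.0%), in 2 of 18 windows of members that were lower (11.1%), and in 9 of 36 windows of members that did not pass (25.0%). Median GC content in these windows was 69.2%, 60.6%, and 64.4%, in that order. The 18 windows of lower members came from 12 genes, and such numbers are too small to compare. The E-box occurred in 4 member windows (5.26%), against 6.02% of all windows. Of these, 3 were among the 18 windows of lower members (16.7%), 0 among the 16 of higher members, and 0 among the 36 of members that did not pass, which are too few windows to compare. A match is a description of the letters and not a binding site.

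A set of 4 windows, chosen after the values were seen, is shown, each written 5′ to 3′ in lower case with AP-2 motifs in capitals. Of the tested members *Sema4f* fell most, and its window at chr6:82939770-82940019 (minus strand) held neither motif. *Sema7a* at chr9:57939862-57940111 (plus strand) held the AP-2 motif at 2 places, alone among the 5 changed members with a window. *Robo2* at chr16:74411826-74412075 (minus strand) and *Robo1* at chr16:72662899-72663148 (plus strand), the neighbours that moved in opposite directions, held neither motif in these windows, and the *Robo1* window precedes a start inside the gene. None of the 4 windows overlaps a GENCODE exon.
*Sema4f*: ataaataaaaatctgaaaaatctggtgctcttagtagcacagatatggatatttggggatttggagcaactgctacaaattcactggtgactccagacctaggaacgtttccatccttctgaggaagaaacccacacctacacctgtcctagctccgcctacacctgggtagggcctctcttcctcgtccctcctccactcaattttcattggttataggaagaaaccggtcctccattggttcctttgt
*Sema7a*: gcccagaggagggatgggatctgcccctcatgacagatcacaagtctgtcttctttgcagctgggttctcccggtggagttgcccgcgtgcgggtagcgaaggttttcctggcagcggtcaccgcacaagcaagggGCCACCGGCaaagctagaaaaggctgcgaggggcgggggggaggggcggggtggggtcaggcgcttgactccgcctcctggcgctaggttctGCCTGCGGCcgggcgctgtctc
*Robo2*: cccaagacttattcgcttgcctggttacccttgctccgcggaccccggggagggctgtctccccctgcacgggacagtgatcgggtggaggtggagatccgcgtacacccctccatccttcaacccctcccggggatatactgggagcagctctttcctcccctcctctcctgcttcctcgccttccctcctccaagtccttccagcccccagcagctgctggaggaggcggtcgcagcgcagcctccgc
*Robo1*: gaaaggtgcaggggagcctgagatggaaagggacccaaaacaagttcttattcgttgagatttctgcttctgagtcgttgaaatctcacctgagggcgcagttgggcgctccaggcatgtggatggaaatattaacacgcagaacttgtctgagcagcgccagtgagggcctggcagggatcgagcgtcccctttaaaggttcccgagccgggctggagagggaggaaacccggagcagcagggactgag
*Robo2* has 3 annotated starts in RefSeq, and the window of the one farthest upstream held 1 E-box.

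How the authors' counting could share reads was also read from the values. Of the 70 members, 39 had whole counts (equal to their rounded value as deposited) in all 8 samples and 31 had a fraction in at least 1. A fraction can arise when a read fits several genes and is divided between them, and its source was not tested here. *Sema3b*, *Sema7a*, *Plxnb3*, and *Robo3* were whole throughout, while *Sema4f* held fractions in 5 samples and *Robo2* in 8. No annotated gene overlaps the exons of these 6 genes.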

How the data were processed

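The deposited values are estimated counts (RSEM expected counts), which the authors made by aligning reads to mm10 with Bowtie2 and estimating counts per gene with RSEM 1.3.1, per their processing notes. The study's methods name HISAT2 instead. Between 67.3% and 67.8% of values per sample were whole, that is equal to their rounded value with no tolerance, and the rest were rounded to the nearest whole number for edgeR and the other tools. Depth was 20778077 to 20888041 counts per sample, with TMM factors from 0.993 to 1.01 and a biological coefficient of variation of 3.79%. Genes were filtered with filterByExpr, and genotype was tested with the quasi-likelihood F-test of edgeR 4.0.16 (R 4.3.3), adjusted over all 13535 genes by Benjamini and Hochberg. A gene changed at an adjusted p under 0.05 and a fold change over 1.5. SE is the log2 fold change divided by the square root of F. CPM used TMM library sizes, and TPM used the union of GENCODE M21 exons on mm10.

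Alternatives were RLE and upper-quartile factors, no filter, at least 10 counts in every sample, replicate number as a block, DESeq2 1.42.0, limma-voom (limma 3.58.1), and each of the 8 samples left out. Beside *Hint1*, the named genes for these alternatives were members past the adjusted p, the member highest in TPM in each family, and pathway and marker genes past both thresholds. The members and the lists of pathway and marker genes were chosen with earlier results of these data known. The code was tested on simulated data with known differences and recovered most of them without false calls. Figures used Python 3.11.15 with matplotlib 3.10.9 and pandas 2.3.3.

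Limits: all samples received PDGF-BB, so an effect of genotype cannot be separated from the response to it. With 4 samples per genotype of unstated origin, small differences may reflect culture or preparation. Low counts carry large errors, as for *Plxnb3* and *Efnb3* in both genotypes and *Sema4f* (8 to 15 counts) in *Hint1*-/- samples. RNA levels say nothing on protein or on receptor activity. Promoter windows of 10 members were not analysed here, and motif matches describe sequence only. Cell composition was read from marker genes and was not estimated, and the single values of 2 marker genes counted in their list are not reported here.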

Additional observations from a re-analysis of the deposited data

Results flagged for a closer look

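*Hint1* and each tested member were examined within a genotype for single samples far from the other 3, by Dixon's ratio on log2 CPM. The counts are given beside each ratio. Chance flags about 1 in 20 groups, or 6.3 of the 126 groups examined, and 3 were found. *Sema4b* in *Hint1*-/- replicate 2 had 1371 counts against 1464 to 1484 in the other samples (ratio 0.841). *Epha10* in *Hint1*-/- replicate 4 had 31 counts against 14 to 16 (ratio 0.841). *Epha6* in *Hint1*-/- replicate 3 had 22 counts against 32 to 33 (ratio 0.919). No value was removed.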

How the results depend on the processing

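The count of 6 changed members, all lower, was 6 with RLE factors, 6 with upper-quartile factors, and 6 in limma-voom. It was 7 without a filter, which added *Epha5*, 4 with at least 10 counts in every sample, and 4 in DESeq2. Leaving out 1 sample at a time gave 3 to 6, with 3 without *Hint1*-/- replicate 4. Higher members at both thresholds numbered 0 in every alternative. Members past the adjusted p, 29, ranged from 23 to 28 when 1 sample was left out, and were 24 in DESeq2. Over 57 named genes without *Hint1*, 804 comparisons gave the same call, 45 a weaker call, 0 a stronger call, and 0 the reverse.

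With replicate number as a replicate block, 6 members changed and 29 passed the adjusted p, and *Plxnb2* had an adjusted p of 0.0559. Another member passed in its place, and the block changed no other call among the named genes. Neither labels nor methods say that equal numbers pair samples across genotypes. Correlations between equal numbers, after subtracting each genotype's mean, were 0.183, 0.136, −0.049, and 0.063. In 3 of 4 WT replicates the best correlation was with the equal number, and WT replicate 3 correlated best with *Hint1*-/- replicate 1 (0.198).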
